A study of Mus musculus with 32 samples.

Results

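*Mex3b*, *N4bp3*, *Samd5*, *Gpx3* and *Katnal2* are 5 of the 54281 genes counted in bone marrow-derived macrophages (BMDMs), and they were chosen by a difference between 4-hydroxytamoxifen (4-OHT)-treated and untreated *Trex1* WT/FL control cells. That contrast is therefore a description here. Its values, and how they lay against the thresholds of this report, support nothing. The same genes were followed in *Trex1* FL/FL cells, whose libraries are not part of the contrast by which they were chosen. The choice was made with earlier results of these data known, so the FL/FL tests may not be fully independent of it. The BMDMs came from *Trex1* FL/FL R26CreERT2 and *Trex1* WT/FL R26CreERT2 mice, were grown in L929 supernatant, and were either left untreated or exposed to 4-OHT at 2 µg/ml for 22 h. RNA was sequenced 1, 2, 3 and 4 days after the end of exposure, which gives 16 groups of 2 libraries. All 32 libraries carry the CreERT2 allele, which is expressed from the *Rosa26* locus and so in most cell types. No cells without Cre were exposed to 4-OHT, and the drug, Cre activity and the loss of 1 *Trex1* allele (WT/FL) or both alleles (FL/FL) cannot be told apart in the treated cells. The labels name no mouse, litter or batch, so p-values measure the spread between these libraries, which may be technical.

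4-OHT is the active metabolite of tamoxifen. It binds oestrogen receptors, and it moves the CreERT2 fusion protein into the nucleus, where Cre recombines loxP sites. The 5 genes belong to no common pathway. *Mex3b* encodes an RNA-binding protein of the MEX3 family that acts on mRNA stability and as a ubiquitin ligase, *N4bp3* a binding partner of the ubiquitin ligase NEDD4, *Samd5* a protein with a sterile alpha motif (SAM) domain, *Gpx3* the secreted glutathione peroxidase, which reduces peroxides, and *Katnal2* a katanin-like ATPase related to the enzymes that cut microtubules.

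Totals ranged from 35120505 to 63760884 counts per library. *Trex1* checked the labels. In treated *Trex1* FL/FL cells its libraries held 14 and 9 counts on day 2 and 0 on the other days, and in treated *Trex1* WT/FL cells its mean was lower than in untreated cells on every day (74.2 ± 7.41 against 135 ± 8.80 CPM on day 3, SD, n = 2). CPM here are counts scaled to library size with TMM factors. The macrophage markers *Adgre1*, *Csf1r*, *Cd68*, *Itgam*, *Mertk*, *Fcgr1*, *Lyz2* and *Mrc1* summed to between 15137 and 49106 CPM. On day 3 this sum was 46092 to 48527 CPM in treated and 45704 to 47469 CPM in untreated WT/FL cells. In FL/FL cells it was 38925 to 39344 CPM in treated and 44942 to 49106 CPM in untreated libraries. *Lyz2* alone held 11134 to 33994 CPM, and the markers did not all move one way. Log2 fold changes of treated against untreated FL/FL cells on day 3 were 1.48 for *Fcgr1*, 0.36 for *Cd68* and 0.07 for *Adgre1*. They were -0.03 for *Mertk*, -0.31 for *Lyz2*, -0.45 for *Csf1r*, -0.48 for *Itgam* and -0.91 for *Mrc1*. The part of these shifts in the FL/FL results was not tested. Sums of neutrophil, dendritic cell and stromal markers reached at most 10.8, 2.47 and 3.31 CPM, mast cell and basophil markers at most 0.198 CPM, and T and B cell and erythroid markers had at most 3 counts per gene in any library. In bulk RNA, fewer cells of a kind and less RNA per cell cannot be told apart.

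The members that fell are shown first by the DNA before their canonical transcription starts. Whether a receptor acts at these stretches was not tested. The lines give the 250 bases upstream of the Ensembl canonical start, 5′ to 3′ on the strand of the gene, read from GRCm39. Other annotated transcripts of *N4bp3* and *Gpx3* start further upstream. Part of the *N4bp3* window and all of the *Gpx3* window therefore lie within the annotated genes. Capitals mark the xenobiotic response core GCGTG, the shared core of sites for the aryl hydrocarbon receptor, to which 4-OHT can also bind, and in *Samd5* the 13 bases of a short oestrogen response element, with their spacer.
*Mex3b*, chr7:82516165-82516414, plus strand: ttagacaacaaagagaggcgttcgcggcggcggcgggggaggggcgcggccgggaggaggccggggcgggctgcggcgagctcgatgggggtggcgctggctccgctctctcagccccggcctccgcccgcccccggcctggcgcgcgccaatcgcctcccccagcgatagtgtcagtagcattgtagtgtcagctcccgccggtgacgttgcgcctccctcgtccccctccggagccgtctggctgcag
*N4bp3*, chr11:51541949-51542198, minus strand: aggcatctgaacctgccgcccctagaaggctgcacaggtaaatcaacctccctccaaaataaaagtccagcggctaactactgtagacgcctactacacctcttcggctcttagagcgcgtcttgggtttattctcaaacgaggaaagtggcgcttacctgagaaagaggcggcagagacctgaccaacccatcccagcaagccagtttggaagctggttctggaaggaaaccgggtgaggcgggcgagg
*Samd5*, chr10:9551161-9551410, minus strand: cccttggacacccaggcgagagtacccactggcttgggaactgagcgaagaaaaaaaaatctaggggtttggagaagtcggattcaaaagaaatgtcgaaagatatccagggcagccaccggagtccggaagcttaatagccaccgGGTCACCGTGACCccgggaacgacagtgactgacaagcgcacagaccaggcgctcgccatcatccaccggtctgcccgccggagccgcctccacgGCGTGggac
*Gpx3*, chr11:54793320-54793569, plus strand: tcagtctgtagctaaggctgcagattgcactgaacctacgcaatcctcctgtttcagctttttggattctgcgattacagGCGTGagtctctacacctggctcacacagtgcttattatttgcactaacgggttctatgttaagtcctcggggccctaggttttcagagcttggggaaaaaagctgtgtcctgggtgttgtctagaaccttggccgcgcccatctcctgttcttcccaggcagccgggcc

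Motifs were searched on both strands in 300 bases, which add the first 50 bases after the canonical start. The same search was run over 21738 promoters of protein-coding genes. The xenobiotic response core was in the promoters of *Samd5* and *Gpx3*, 2 of 5, and in 37% of all promoters. The oestrogen response element half-site AGGTCA was in that of *Katnal2* alone, 1 of 5, and in 15.1% of all. The AP-1 motif TGANTCA was in 7.15% and the longer oestrogen response element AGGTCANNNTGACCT, both half-sites facing each other across 3 bases, in 0.0184% of all promoters, and the 5 windows held neither. The shorter form GGTCANNNTGACC, which every longer one contains, was searched after the sequences had been seen. It was in the promoter of *Samd5*, 104 to 92 bases before the start, 1 of 5, and in 11 of all 21738 promoters (0.0506%). A match is a description of the letters and not a site. The GC content upstream of the start was 74% for *Mex3b*, 54.8% for *N4bp3*, 59.2% for *Samd5*, 52% for *Gpx3* and 50.8% for *Katnal2*, where the median promoter had 53.2%.

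*Mex3b* was the member with the highest counts. The gene lies at chr7:82516415-82520723 (GRCm39, as for all positions here) on the plus strand and has 2 exons. In untreated WT/FL cells its counts were 320 and 233 on day 1, 628 and 420 on day 2, 1089 and 1097 on day 3, and 662 and 617 on day 4. Treated WT/FL cells held 346 and 301, then 114 and 134, 107 and 71, and 128 and 86. Untreated FL/FL cells held 373 and 304, 497 and 516, 1125 and 1032, and 861 and 592 counts. In treated FL/FL cells the counts were 263 and 256 on day 1 and 59 and 74, 50 and 98, and 43 and 55 on days 2, 3 and 4. In CPM, both treated libraries lay below both untreated libraries on days 2, 3 and 4 in either genotype. Such a separation of 2 libraries from 2, here and for the members below, is a description. Its share over all genes was not taken, and in WT/FL cells it repeats the choice. Without 4-OHT the level climbed to a peak on day 3, 24.9 ± 2.34 CPM in WT/FL and 28.4 ± 0.344 CPM in FL/FL cells (SD, n = 2), from 6.54 ± 1.24 and 5.75 ± 0.618 CPM on day 1. With 4-OHT this climb was missing, and the level was 1.81 ± 0.319 and 1.57 ± 0.151 CPM on day 3.

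In FL/FL cells 4 of the 5 members fell, the direction in which they had been chosen, and the days on which they were called differed. Calls needed an adjusted p under 0.01 together with a log2 fold change beyond 1.5 in size (edgeR quasi-likelihood test, Benjamini-Hochberg adjustment over 15257 genes). All 5 members passed the filter on low counts. On day 1 edgeR called 0 of the 5 in FL/FL cells, with 0 at an unadjusted p below 0.05 and 0 called by DESeq2, where 0.00655% of all genes tested were called. On day 2, *Mex3b* and *N4bp3* were called, 2 of 5 against 1.03% of all genes. On day 3, *Mex3b*, *N4bp3*, *Samd5* and *Gpx3* were called, 4 of 5 against 1.67%. On day 4, *Mex3b*, *N4bp3* and *Gpx3* were called, 3 of 5 against 3.43%. Each of these calls was a decrease.

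In WT/FL cells the members were chosen for their change with 4-OHT. The counts past these thresholds there, 0, 1, 5 and 1 of 5 on days 1 to 4, are therefore not evidence of a response. The 0%, 0.0131%, 0.0524% and 0.0131% of all genes past them are given for completeness. Which members were past the thresholds in WT/FL cells depended on the processing. On day 3 all 5 were past the thresholds by the fit used here, but 4 by DESeq2 (without *Katnal2*), 4 at a minimum count of 30 (without *Gpx3*) and 3 when the 16 WT/FL libraries were fitted alone (without *Katnal2* and *Gpx3*). Without the first or the second untreated library of that day 4 and 3 were, and without the first or the second treated library 2 and 3 were, with *Mex3b* and *N4bp3* among them each time. The members nearest to the p threshold on day 3 were *Katnal2* and *Gpx3*, with adjusted p of 0.00979 and 0.00998. Just outside lay *Sema5a* and *Gfra2* by their adjusted p, 0.026 and 0.045, and *Nlrp3* and *Clec10a* by their log2 fold changes, -1.43 and -1.41. The other genes past the thresholds on any day were *Vegfa*, *Mgl2* and *Ska1*. In FL/FL cells *Vegfa* was at -1.73 ± 0.18, -2.11 ± 0.16 and -1.05 ± 0.16 on days 2, 3 and 4. *Mgl2* was at -3.33 ± 0.74, -6.71 ± 0.66 and -6.97 ± 0.84 there, and *Ska1* at -0.64 ± 0.16, 0.37 ± 0.29 and -3.27 ± 0.35.

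**Figure D1:**
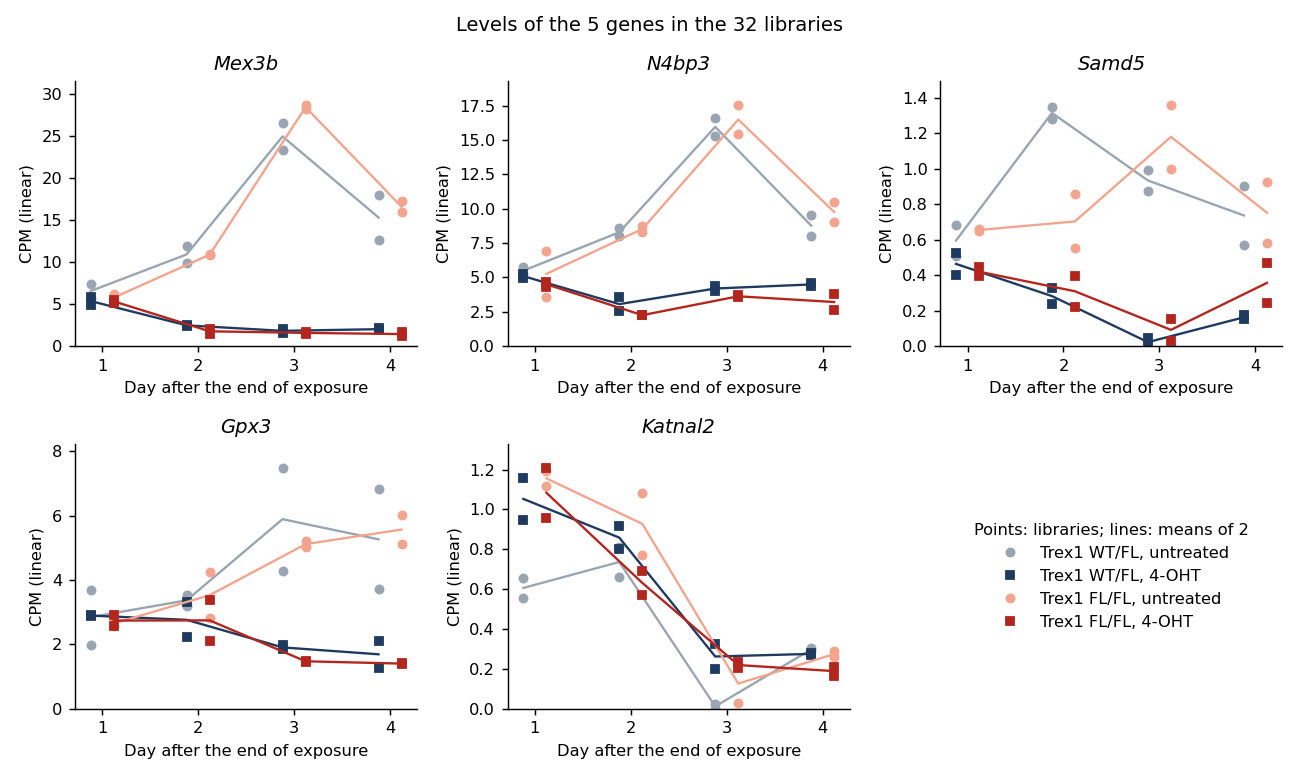
Level of each gene in CPM (linear axis from 0) against the day after the end of exposure. Each point is 1 library and each line joins means of 2; circles are untreated and squares 4-OHT-treated, with *Trex1* WT/FL in grey and blue and *Trex1* FL/FL in orange and red. Untreated *Mex3b* and *N4bp3* peaked on day 3 in both genotypes, at 24.9 to 28.4 and 16.0 to 16.5 CPM, and treated cells lacked the peak.

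The decrease of *Mex3b* in FL/FL cells grew from day 1 to day 3. The log2 fold change was -0.11 ± 0.17 (SE) on day 1, -2.63 ± 0.19 on day 2 (edgeR adjusted p = 9.2e-11), -4.16 ± 0.20 on day 3 (adjusted p = 1.3e-14) and -3.54 ± 0.20 on day 4 (adjusted p = 1.5e-13). This is 17.9-fold lower on day 3. The change of the effect from day 1 to day 2, a log2 difference of -2.52 ± 0.26, passed the thresholds (edgeR adjusted p = 1.4e-07), as did that from day 2 to day 3, -1.53 ± 0.27 (adjusted p = 0.0015). The latter is a value just past the fold threshold. It was -1.27 ± 0.31 without the second treated library of day 2 and -1.45 ± 0.31 without the first treated library of day 3, with edgeR adjusted p of 0.030 and 0.013, and the call was then lost. From day 3 to day 4 the effect changed by 0.62 ± 0.28, which did not pass (adjusted p = 0.23). In WT/FL cells the log2 fold changes were -0.29 ± 0.17, -2.15 ± 0.18, -3.77 ± 0.19 and -2.91 ± 0.19 on days 1 to 4.

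Both arms of *Mex3b* moved over time in FL/FL cells. From day 1 to day 4 the untreated level rose by 1.52 ± 0.17 on the log2 scale (edgeR adjusted p = 7.6e-09), and the treated level fell by 1.90 on the log2 scale, SE 0.21 (adjusted p = 5.1e-09). The rise was just above the fold threshold and was 1.49 with DESeq2 or with RLE size factors in edgeR, and 1.42 and 1.47 without the second untreated library of day 1 or of day 4, all below it. *Katnal2* was the other member called in these comparisons, lower on day 4 in either arm. In all, 2 of 5 members were called between day 1 and day 4 in untreated cells, where 14.6% of all genes were, and 2 of 5 in treated cells, where 16.4% were.

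*N4bp3* followed a course close to that of *Mex3b*, with a smaller fall. It lies at chr11:51529715-51542173 on the minus strand. Untreated WT/FL cells held 226 and 236 counts on day 1, 455 and 338 on day 2, 716 and 687 on day 3, and 420 and 328 on day 4. Treated WT/FL cells held 293 and 325, 118 and 194, 228 and 181, and 273 and 202. The untreated FL/FL libraries held 418 and 205, 396 and 399, 701 and 557, and 490 and 360 counts, and the treated ones 224 and 215, 90 and 82, 127 and 207, and 95 and 125. The pair of untreated FL/FL libraries on day 1 differed most (6.93 and 3.58 CPM). On days 2, 3 and 4 both treated libraries lay below both untreated libraries in either genotype, and in WT/FL cells also on day 1.

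In FL/FL cells the log2 fold change of *N4bp3* was -0.23 ± 0.20 on day 1 (edgeR adjusted p = 0.87), -1.92 ± 0.22 on day 2 (adjusted p = 1.3e-07), -2.19 ± 0.21 on day 3 (adjusted p = 5.7e-09) and -1.61 ± 0.21 on day 4 (adjusted p = 7.4e-07). Without the first treated library of day 4 the value on that day was -1.37 ± 0.26, short of the fold threshold. The step from day 1 to day 2 was called, a change of -1.69 ± 0.29 (edgeR adjusted p = 2.0e-04), but without the second untreated library of day 1, which had the lower count, it was -1.30 ± 0.25 and was not. Later steps were -0.27 ± 0.29 and 0.58 ± 0.29, neither of which passed (adjusted p = 0.73 and 0.29). WT/FL cells had -0.11 ± 0.20, -1.43 ± 0.20, -1.93 ± 0.20 and -0.96 ± 0.20.

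The start of *N4bp3* overlaps *D930048N14Rik*, a long non-coding RNA gene on the opposite strand at chr11:51541772-51548508, and the sources used here do not say whether counting used strand. *D930048N14Rik* had log2 fold changes of -1.29 ± 0.36, -1.29 ± 0.33 and -1.08 ± 0.35 on days 2, 3 and 4 in FL/FL cells, none past the fold threshold. It shared the day 3 peak of untreated cells, 5.40 ± 0.693 CPM in WT/FL and 4.96 ± 0.790 CPM in FL/FL. Of the 31-base stretches in *N4bp3* transcripts, 3.16% also occur, reversed, in transcripts of other genes. The part of shared reads in either result was not tested.

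*Gpx3* passed the thresholds in FL/FL cells from day 3 on, and *Mex3b* and *N4bp3* from day 2 on. Timing was not tested between genes. The *Gpx3* gene lies at chr11:54793279-54802424 on the plus strand. Untreated WT/FL libraries held 86 and 152 counts on day 1, 169 and 150 on day 2, 201 and 309 on day 3, and 195 and 234 on day 4, and treated ones 170 and 181, 102 and 181, 97 and 88, and 75 and 98. Untreated FL/FL libraries held 155 and 156, 128 and 203, 208 and 181, and 277 and 207 counts, and treated ones 139 and 128, 85 and 122, 50 and 87, and 50 and 47. In CPM, treated and untreated libraries overlapped on days 1 and 2 and were apart on days 3 and 4 in either genotype. The mean in untreated FL/FL cells went from 2.65 ± 0.110 CPM on day 1 to 5.57 ± 0.632 CPM on day 4, and in treated cells from 2.74 ± 0.225 to 1.40 ± 0.0272 CPM (SD, n = 2).

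The log2 fold changes of *Gpx3* in FL/FL cells were 0.05 ± 0.32 and -0.37 ± 0.32 on days 1 and 2, which did not pass (edgeR adjusted p = 1.00 and 0.52). They were -1.79 ± 0.33 on day 3 (adjusted p = 1.9e-04) and -1.98 ± 0.34 on day 4 (adjusted p = 4.6e-05). The step from day 2 to day 3, -1.42 ± 0.46, did not itself pass (adjusted p = 0.085). WT/FL cells had 0.03 ± 0.32, -0.28 ± 0.32, -1.62 ± 0.32 and -1.64 ± 0.32. These counts carry a doubt, since 80.6% of the 31-base stretches of *Gpx3* transcripts occur reversed in transcripts of *Tnip1*, a gene on the opposite strand with far more reads. *Tnip1*, an inhibitor of NF-κB signalling, lay between 114 and 153 CPM in all 32 libraries, and its own log2 fold changes in FL/FL cells were -0.12 ± 0.08 on day 3 and -0.02 ± 0.08 on day 4 (edgeR adjusted p = 0.33 and 0.89). The reads of the 2 genes cannot be told apart if counting ignored strand, and the *Gpx3* values are uncertain to that extent.

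**Figure D2:**
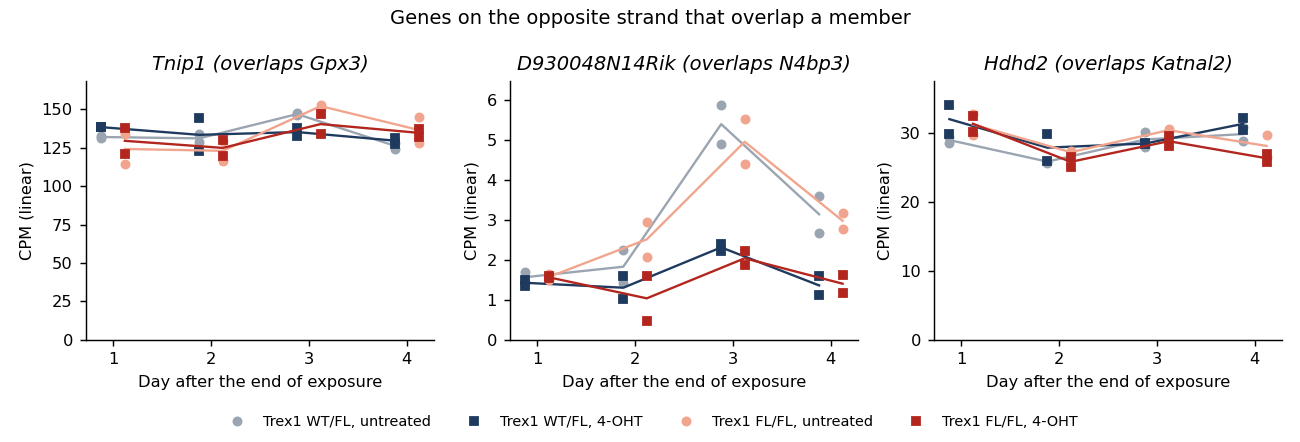
Levels in CPM (linear axis from 0) of 3 counted genes on the opposite strand that overlap a member, against the day after the end of exposure, with colours and symbols for genotype and treatment in the legend; points are libraries and lines means of 2. *Tnip1* stayed between 114 and 153 CPM, *D930048N14Rik* peaked on day 3 without 4-OHT at 4.96 to 5.40 CPM, and *Hdhd2* stayed between 25.1 and 34.2 CPM.

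*Samd5* had few counts, and its lowest values fell on day 3 with 4-OHT. The gene lies at chr10:9399736-9551160 on the minus strand. Untreated WT/FL libraries held 22 and 28, 68 and 57, 41 and 41, and 30 and 31 counts on days 1 to 4. Treated WT/FL libraries held 31 and 25, 15 and 13, 0 and 2, and 9 and 8. Untreated FL/FL libraries held 40 and 37, 25 and 41, 40 and 49, and 50 and 20, and treated ones 19 and 22, 16 and 8, 1 and 9, and 17 and 8 counts. In CPM, all treated FL/FL libraries lay below the untreated ones of their day on all 4 days, as they did in WT/FL cells on days 2, 3 and 4. This order is a description, and on days 1, 2 and 4 the FL/FL differences did not pass the thresholds.

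The log2 fold change of *Samd5* in FL/FL cells passed the thresholds on day 3 alone, at -3.50 ± 0.60 (edgeR adjusted p = 6.8e-05). On days 1, 2 and 4 it was -0.64 ± 0.52, -1.17 ± 0.54 and -1.08 ± 0.54 (adjusted p = 0.84, 0.16 and 0.14). The change of this effect was -2.33 ± 0.81 from day 2 to day 3 and 2.42 ± 0.81 from day 3 to day 4, and neither passed (edgeR adjusted p = 0.11 and 0.074). In WT/FL cells the log2 fold changes on days 1, 2 and 4 were -0.36 ± 0.52, -2.22 ± 0.53 and -2.16 ± 0.57. On day 3 the 2 treated WT/FL libraries held 2 counts between them against 82 in the untreated ones.

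*Katnal2* was the member with a rise in WT/FL cells given 4-OHT, past the thresholds on day 3 alone. No such rise was called in FL/FL cells. The *Katnal2* gene lies at chr18:77062766-77135024 on the minus strand. Untreated WT/FL libraries held 24 and 27 counts on day 1, 43 and 28 on day 2, 0 and 1 on day 3, and 16 and 10 on day 4. Treated WT/FL libraries held 56 and 72, 42 and 44, 17 and 9, and 16 and 13. Untreated FL/FL libraries held 72 and 64, 35 and 52, 9 and 1, and 14 and 10 counts, and treated ones 46 and 60, 23 and 25, 8 and 12, and 6 and 7. The WT/FL log2 fold changes were 0.79, 0.22, 4.24 and -0.11 on days 1 to 4. The day 3 difference in WT/FL cells rests on 1 count in the untreated libraries against 26 in the treated ones.

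In FL/FL cells the log2 fold changes of *Katnal2* were -0.09 ± 0.45, -0.56 ± 0.47, 0.74 ± 0.60 and -0.53 ± 0.57 on days 1 to 4, and none passed (edgeR adjusted p between 0.44 and 0.99). On day 3 the libraries overlapped, since 1 untreated library had 9 counts (0.225 CPM) and the treated ones 0.234 and 0.205 CPM. In CPM, both treated FL/FL libraries lay below both untreated ones on days 2 and 4 and overlapped them on day 1. In WT/FL cells both treated libraries lay above both untreated ones on days 1 and 3, below them on day 4, and overlapped them on day 2. In all 4 arms the mean was lower on day 4 than on day 1. From day 1 to day 4 the level fell by 2.07 on the log2 scale in untreated FL/FL cells, SE 0.50 (edgeR adjusted p = 6.8e-04), and by 2.51 in treated ones, SE 0.53 (adjusted p = 1.7e-04). Without the first untreated library of day 4 the untreated value was -1.98 ± 0.66 (adjusted p = 0.013) and was no longer called. WT/FL cells had -1.02 ± 0.50 untreated and -1.93 ± 0.49 treated. *Hdhd2*, which overlaps the end of *Katnal2* on the opposite strand, had a log2 fold change of -0.08 ± 0.08 on day 3 in FL/FL cells (adjusted p = 0.56).

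**Figure D3:**
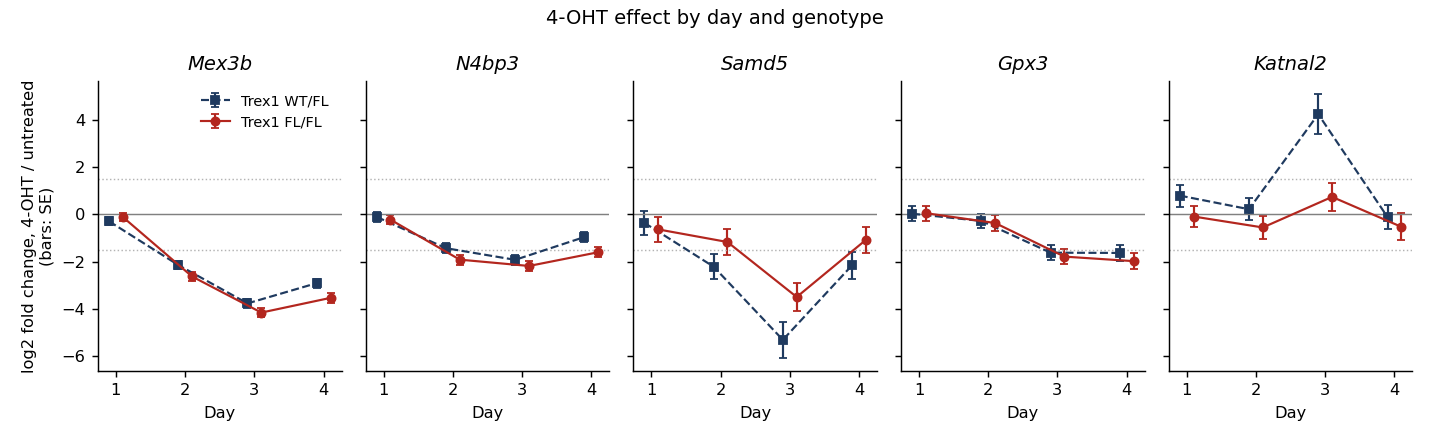
Log2 fold change of treated against untreated cells for each gene on days 1 to 4, with bars for 1 SE; squares and dashed lines are *Trex1* WT/FL, circles and solid lines *Trex1* FL/FL, and dotted lines mark the fold threshold of 1.5 in either direction. The WT/FL values chose the genes, and those of *Samd5* and *Katnal2* on day 3 rest on groups with 2 and 1 counts and depend on the prior count of the fit.

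Set side by side, the effects in FL/FL cells minus those in WT/FL cells were within 0.64 on the log2 scale for *Mex3b*, *N4bp3* and *Gpx3*. For *Mex3b* this difference was 0.18 ± 0.24, -0.49 ± 0.27, -0.39 ± 0.27 and -0.62 ± 0.27 on days 1 to 4 (SE). For *N4bp3* it was -0.12 ± 0.28, -0.49 ± 0.30, -0.26 ± 0.28 and -0.64 ± 0.29, and for *Gpx3* 0.02 ± 0.45, -0.09 ± 0.45, -0.17 ± 0.46 and -0.35 ± 0.46. For *Samd5* it was -0.28 ± 0.73, 1.05 ± 0.76, 1.82 ± 1.03 and 1.08 ± 0.78, of the other sign from day 2 on, and for *Katnal2* -0.89 ± 0.65, -0.77 ± 0.66, -3.50 ± 1.10 and -0.42 ± 0.77. The day 3 values of these 2 genes rest on the WT/FL groups with 2 counts and 1 count and depend on the prior count of the fit. These differences use the WT/FL libraries by which the genes were chosen, so no test is given. Between untreated cells of the 2 genotypes the log2 differences, FL/FL minus WT/FL, of *Mex3b* were between -0.19 and 0.19, those of *N4bp3* between -0.06 and 0.15, and those of *Gpx3* between -0.20 and 0.09. Those of *Samd5* were between -0.90 and 0.34. *Katnal2* had 0.93 ± 0.46, 0.33 ± 0.46, 3.23 ± 0.95 and -0.13 ± 0.53 on days 1 to 4, the third of which rests on 1 count in WT/FL cells.

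Averaged over the 4 days, *Mex3b* and *Samd5* passed the thresholds in FL/FL cells, 2 of 5 where 0.931% of all genes did. Their mean log2 fold changes were -2.61 ± 0.10 (edgeR adjusted p = 1.4e-17) and -1.60 ± 0.28 (adjusted p = 3.6e-05). *N4bp3*, at -1.48 ± 0.10 (adjusted p = 4.9e-12), and *Gpx3*, at -1.02 ± 0.16 (adjusted p = 1.4e-05), passed the p but not the fold. *Katnal2* was at -0.11 ± 0.27 (adjusted p = 0.81). The threshold of 1.5 lay close to both *Samd5* and *N4bp3*. *Samd5* was at -1.45 without the first treated library of day 3 and -1.50 without the second treated library of day 4, both short of it, and *N4bp3* passed it, at -1.51 to -1.58, without the second untreated library of day 1 or of day 3, the first untreated library of day 4 or the second treated library of day 4.

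Across the tests of persistence, 2 of 5 members were called for a change of the effect from day 1 to day 2 (*Mex3b* and *N4bp3*), where 0.61% of all genes were. From day 2 to day 3, 1 of 5 was called (*Mex3b*), where 0.144% were. From day 3 to day 4 edgeR called 0 of 5, where 0.806% were, with 2 at an unadjusted p below 0.05 (*Mex3b* and *Samd5*) and 0 called by DESeq2. At day 4 the treated FL/FL level of *Mex3b* was 0.268 of its own day 1 level, that of *Gpx3* 0.512, that of *N4bp3* 0.712 and that of *Samd5* 0.849. The untreated levels were 2.88, 2.10, 1.86 and 1.15 times theirs.

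**Figure D4:**
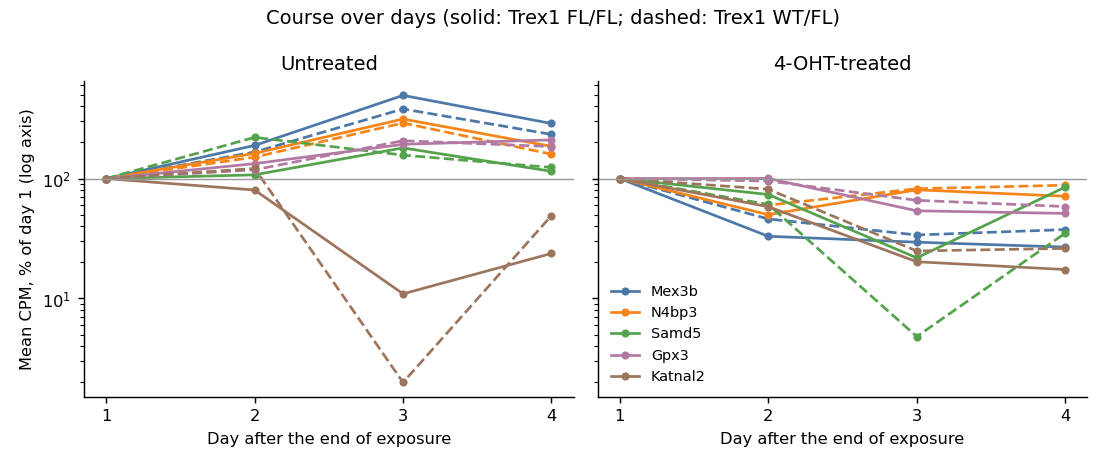
Mean level of each gene on days 1 to 4 as a percentage of its day 1 mean (log axis), in untreated cells on the left and 4-OHT-treated cells on the right; solid lines are *Trex1* FL/FL, dashed lines *Trex1* WT/FL, and each point is a mean of 2 libraries. Untreated *Mex3b* reached 4.94 times its day 1 level on day 3 in FL/FL cells, and *Katnal2* fell in both panels; the lowest dashed points, *Katnal2* on the left and *Samd5* on the right, rest on 1 and 2 counts.

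In the order of the 16 group means, *Mex3b* was highest in untreated FL/FL cells on day 3 (28.4 CPM) and lowest in treated FL/FL cells on day 4 (1.43 CPM), and 9 of the 15 neighbouring pairs in that order had overlapping libraries. *N4bp3* was highest in the same group (16.5 CPM) and lowest in treated FL/FL cells on day 2 (2.25 CPM), with 9 of 15 pairs overlapping. *Gpx3* was highest in untreated WT/FL cells on day 3 (5.89 CPM), with 11 of 15 overlapping. *Samd5* was highest in untreated WT/FL cells on day 2 (1.32 CPM) and *Katnal2* in untreated FL/FL cells on day 1 (1.16 CPM), with 13 and 12 of 15 pairs overlapping. Neighbours in a ranked order are the closest means, so these overlaps are a description of the order. Their share over all genes was not taken.

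The genes most like each member over all 32 libraries, by Pearson's r of log2 CPM, came partly from within the set. The points share libraries, days and treatment, so the values are a description. Among the libraries are those of WT/FL cells by which the members were chosen. Likeness between members, and the distance of *Katnal2* from the rest, is therefore partly fixed by the choice. For *Mex3b* they were *Bin1* (r = 0.937), *N4bp3* (0.928) and *Nlrp3* (0.924), for *N4bp3* they were *Mex3b* (0.928), *Bin1* (0.901) and *Tm6sf1* (0.889), for *Samd5* they were *Mex3b* (0.782), *Nipa1* (0.729) and *Nlrp3* (0.723), and for *Gpx3* they were *Mex3b* (0.863), *Bin1* (0.811) and *Mgl2* (0.791). *Katnal2* stood apart, with *Zfp365* (0.917), *Smtn* (0.904) and *Ugp2* (0.897) nearest and r = -0.253 with *Mex3b*. After the mean of each genotype and day was subtracted, which leaves treatment and replicate spread, *Nlrp3*, *Wdfy2* and *Ankrd33b* were nearest to *Mex3b* (0.976, 0.969 and 0.963). By the same measure *Mex3b*, *Nlrp3* and *Rmnd5b* were nearest to *N4bp3* (0.961, 0.960 and 0.948), *Mbnl1*, *Pik3r1* and *Wdfy2* to *Samd5* (0.917, 0.904 and 0.896), *Tbxas1*, *Mgl2* and *Mras* to *Gpx3* (0.920, 0.917 and 0.900), and *Zfp365*, *Tm7sf2* and *Slco4a1* to *Katnal2* (0.744, 0.655 and 0.640). *Nlrp3*, the sensor of the inflammasome that activates interleukin-1β, was at -1.89 ± 0.08 and -1.33 ± 0.08 on days 3 and 4 in FL/FL cells, with no test since it was chosen for its likeness over the same libraries.

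Relatives of the members are read against all genes tested, of which the shares called in FL/FL cells are those given above (0.00655%, 1.03%, 1.67% and 3.43% on days 1 to 4) and 7%, 27.4%, 33.2% and 38.1% had an unadjusted p below 0.05. With so few called in all, 0 of a few relatives sets none of them apart. Of the other MEX3 genes, *Mex3a*, *Mex3c* and *Mex3d*, edgeR called 0 of 3 on any day in FL/FL cells and DESeq2 0, with 1 at an unadjusted p below 0.05 on each day. *Mex3c* was at 0.27 ± 0.07 on day 3, against -4.16 for *Mex3b*. Of the other glutathione peroxidases 3 of 7 were tested, edgeR and DESeq2 called 0 on any day, and 0, 1, 1 and 1 had an unadjusted p below 0.05 on days 1 to 4. *Gpx1*, the cytosolic form and the one with the most counts, was at 0.37 ± 0.07 on day 4, and *Gpx4*, which protects membrane lipids, at -0.13 ± 0.07. Of 6 other microtubule-severing enzymes or their partners tested, both tools called 0, with 0, 0, 4 and 2 at an unadjusted p below 0.05, and the largest difference was that of *Fignl1* on day 4, -1.31 ± 0.17.

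Of 9 other NEDD4-binding and LZTS genes, 0, 0, 0 and 1 were called lower by either tool on days 1 to 4, with 1, 2, 3 and 2 at an unadjusted p below 0.05. The gene called was *Nedd4* itself on day 4, at -2.33 ± 0.61 (edgeR adjusted p = 0.0041), a gene with at most 94 counts. In WT/FL cells *Nedd4* was at 0.29 ± 0.46 on day 4. The effects, FL/FL minus WT/FL, differed by -2.62 ± 0.77 (edgeR adjusted p = 0.018). Of 11 other SAM domain genes tested, edgeR called 0 on any day and DESeq2 called 1 on day 4, with 0, 3, 6 and 7 at an unadjusted p below 0.05, where on day 4 3.43% of all genes were called and 38.1% had such a p. The highest value on day 2 was that of *Samd9l*, an interferon-inducible gene, at 1.00 ± 0.07 (edgeR adjusted p = 6.2e-11).

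Around *Gpx3*, the genes of glutathione synthesis and peroxide handling called in FL/FL cells were lower, and were called on day 4. Of the 16 tested, 0, 0, 0 and 3 were called lower and 0 higher on days 1 to 4 by edgeR (0, 0, 0 and 3 by DESeq2), where 3.43% of all genes were called on day 4. An unadjusted p below 0.05 was found for 1, 8, 11 and 15 of them, against 38.1% of all genes on day 4. On day 4 the list had a median of -0.65 on the log2 scale, where that of all genes tested was -0.04. The 3 called were *Gclm*, the modifier subunit of the enzyme that limits glutathione synthesis, at -1.73 ± 0.12, *Hmox1*, which degrades haem, at -1.55 ± 0.08, and *Nqo1*, a quinone reductase, at -2.07 ± 0.21. In WT/FL cells 0 of the 16 were called on any day, where 0%, 0.0131%, 0.0524% and 0.0131% of all genes were on days 1 to 4. The list median there was -0.24 on day 4, against 0.0069 for all genes tested. Of the 16, 3 were lower on that day at an edgeR adjusted p below 0.05. On day 4 in WT/FL cells *Gclm* was at -0.51 ± 0.12, *Hmox1* at -0.47 ± 0.08 and *Nqo1* at -0.47 ± 0.19. The day 4 effects, FL/FL minus WT/FL, differed by -1.22 ± 0.17, -1.08 ± 0.11 and -1.60 ± 0.28 (edgeR adjusted p = 2.0e-05, 3.2e-08 and 1.9e-04).

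Of the receptors through which tamoxifen acts and their common response genes, 7 of 14 had enough counts to be tested. *Esr1*, which encodes oestrogen receptor alpha, was present at 5.01 to 18.9 CPM and had log2 fold changes of 0.02 ± 0.13, -0.03 ± 0.13 and 0.12 ± 0.13 on days 2, 3 and 4. *Esr2* had 0 counts in every library, and the oestrogen-responsive *Greb1* and *Pgr* had at most 5 and 7. *Ahr*, the aryl hydrocarbon receptor, was the gene called in this list, lower on day 4 at -1.68 ± 0.14 (edgeR adjusted p = 3.4e-10) in FL/FL cells. It was already at -1.12 ± 0.14 on day 2 and -1.28 ± 0.14 on day 3 there, short of the fold threshold (edgeR adjusted p = 8.9e-07 and 4.7e-08). In WT/FL cells given the same drug it was at -0.0012 ± 0.13, -0.11 ± 0.13 and 0.0048 ± 0.13 on days 2, 3 and 4. The effects of the 2 genotypes differed by -1.12 ± 0.20, -1.17 ± 0.19 and -1.69 ± 0.19 on these days (edgeR adjusted p = 2.7e-04, 1.4e-04 and 2.8e-07). Over the list 0, 0, 0 and 1 were called on days 1 to 4 by either tool, with 1, 2, 2 and 3 at an unadjusted p below 0.05. The *Ahr* target *Cyp1a1* had at most 2 counts. *Ahrr*, the repressor of the receptor, was at -1.08 ± 0.16 on day 3 in FL/FL and 0.25 ± 0.15 in WT/FL cells. The difference was -1.33 ± 0.22 (edgeR adjusted p = 4.3e-04). *Tiparp*, also in this list, was higher in FL/FL cells on day 2, at 0.51 ± 0.08 (edgeR adjusted p = 2.1e-05). It was at -0.04 ± 0.08 and 0.21 ± 0.08 on days 3 and 4 there. In WT/FL cells *Tiparp* was at 0.07 ± 0.08, -0.07 ± 0.08 and -0.18 ± 0.08 on days 2, 3 and 4.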

How the data were processed

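The BMDM libraries were made by standard Illumina protocols from total RNA. The labels give genotype, treatment and day but no replicate number, animal or batch. The authors checked reads with FastQC 11.9, quantified transcripts with Salmon and summed them per gene with tximport, naming GRCm39; the annotation release and the use of strand are not given in the sources used here. The table deposited by the authors holds gene-level estimated counts as whole numbers, which needed no rounding.

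Of 54281 identifiers, 51048 matched GENCODE vM39 without their version. The quasi-likelihood test of edgeR 4.0.16 (R 4.3.3, robust glmQLFit, TMM factors) was run on all 32 libraries with 16 group means and 16 residual degrees of freedom, after a filter at a minimum count of 10 that kept 15257 genes. CPM use TMM-scaled totals; log2 CPM have a prior count of 2 and fitted fold changes one of 0.125. DESeq2 1.42.0, RLE factors, other filters, smaller sets of libraries and a block on title order were alternatives. With 2 libraries against 2, an exact permutation test cannot go below p = 0.33, and replicate numbers here follow accession order. On simulated counts of 14139 genes, for 4-OHT against untreated FL/FL on day 3, the script for the 16 groups called 58 of 67 genes given a log2 change of 2, and 1 of 67 given a change of 1, under the threshold of 1.5.

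The members and the gene lists (named relatives, glutathione and peroxide handling, tamoxifen receptors and response genes, cell type markers) were chosen with earlier results of these data known. Genes were named by a rule: the members, their listed relatives, the 3 genes most like each member by Pearson's r, genes called in the WT/FL contrast and those just outside its thresholds; from lists, those called and the extremes or best-known members are given. Promoters were read from GRCm39 at Ensembl canonical starts.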

Additional observations from a re-analysis of the deposited data

How the results depend on the processing

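The counts of called members in FL/FL cells on each day (0, 2, 4 and 3), and the mean over days, did not change with RLE factors, DESeq2, no filter, a minimum count of 30 or the 16 libraries of the genotype, and the daily counts also stayed with the 4 libraries of the comparison or an adjusted p below 0.05 without a fold limit. For day 4 against day 1 in untreated cells 1 member was called with RLE factors and 1 with DESeq2, since *Mex3b* was then at 1.49. With each library left out in turn the counts were 0 to 0, 2 to 2, 4 to 4 and 2 to 3 on days 1 to 4, 1 to 3 for the mean, 1 to 2, 0 to 1 and 0 to 0 for the changes between days, 1 to 2 for untreated and 2 to 2 for treated day 4 against day 1; the lone library is then assumed to vary like the other groups. The counts for changes of the 4-OHT effect between consecutive days were also as reported with RLE factors, DESeq2 and the 16 libraries. Of the FL/FL log2 fold changes 6 values changed sign over all settings, each of a member not called. The fitted WT/FL day 3 log2 fold change of *Samd5*, -5.32, was -4.31 without the first and -8.45 without the second treated library, and that of *Katnal2*, 4.24, was 3.31 and 6.64 without the first and the second untreated library. Spearman's rho in place of Pearson's r kept 15 of the 30 genes named as most like a member. The labels give no replicate numbers, but the 2 library titles of each group are 16 apart. Correlations between groups of the difference between the lower and the higher title, over genes, were -0.00775 to 0.144 in FL/FL and 0.0242 to 0.118 in WT/FL cells, so the titles were not taken as pairs. A replicate block on title order for each genotype, added after seeing the data, called 0, 2, 4 and 3 members on days 1 to 4 in FL/FL cells and left the other FL/FL counts as they were; in WT/FL cells 4 members were then past the thresholds on day 3. Few counts limit *Samd5* and *Katnal2*, with a median of 23.5 and 20 counts per library.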
